A study of Rattus norvegicus with 12 samples.

Results

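The miRNAs described here are rno-miR-21-5p and the products of the locus of miR-199a and miR-214, namely rno-miR-199a-3p, rno-miR-199a-5p, rno-miR-214-3p and rno-miR-214-5p, in the left ventricle of the rat. The prefix, which stands for the rat, is left out from here on. They were taken by name from the array, which held 758 rat miRNAs, and all 5 were on it. Of these, 4 were detected on all 12 arrays and tested with 263 miRNAs in all, and miR-214-5p was detected on no array. Detection required more than 50% of the spots of 1 or more probes to be well above background.

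MiRNAs are short RNAs that pair through their seed, the bases 2 to 8 from the 5′ end, with messenger RNAs and lower their translation or stability. miR-21-5p is abundant in cardiac fibroblasts, where the repression of Sprouty and phosphatase transcripts has tied it to fibroblast survival and fibrosis. The locus of miR-199a and miR-214 is transcribed as a single long noncoding RNA opposite the Dnm3 gene, is active in mesenchymal cells, and gives several mature miRNAs from its hairpins. Both loci are known to become more active in hearts under load or after infarction.

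MiRNA expression was measured in 12 male Wistar rats, with 4 rats and 4 single-dye arrays each for Sham, MI and YQFM. MI rats, labelled as the chronic heart failure group, had the left anterior descending coronary artery ligated, and Sham rats had the same operation without the ligature. After 4 weeks, infarcted rats of the YQFM group received Yiqifumai Injection, a preparation of ginseng, ophiopogon and schisandra, at 5 mg/kg/d intraperitoneally for 28 days, while saline was given to the other groups. The RNA came from tissue of the left ventricle near the infarct, a mixture of cell types, so that more cells of a type and more of a miRNA per cell cannot be told apart.

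The mature sequences of the members (RefSeq, GRCr8) are shown because their probes tell apart both arms of each hairpin, and the seed is in capitals.
miR-21-5p: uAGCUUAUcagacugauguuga
miR-199a-3p: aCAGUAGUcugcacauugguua
miR-199a-5p: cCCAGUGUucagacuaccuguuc
miR-214-3p: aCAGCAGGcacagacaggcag
miR-214-5p: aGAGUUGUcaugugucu
The 5 seeds were distinct from each other. The miR-199a and miR-214 products are thus related by position and not by seed, and miR-21-5p is related to them by neither. In the GRCr8 annotation, Mir21 lies on chromosome 10 from 71902600 to 71902691, at 531 bases from the protein coding gene Vmp1. Mir199a2, which gives both miR-199a arms, lies on chromosome 13 from 77116225 to 77116334, and Mir214 from 77121645 to 77121752. The gap between these hairpins is 5310 bases and both lie within Dnm3, whose exons and introns the table does not separate. A further miRNA gene, Mir3120 (chromosome 13, 77121647 to 77121763), overlaps Mir214 by 106 bases. Its product miR-3120 is read from the opposite strand of the same hairpin, and its reverse complement lies within the hairpin of Mir214:
miR-3120: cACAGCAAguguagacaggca

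Some arrays stood apart or carried conflicting labels. The source names of MI replicate 4 and of Sham replicate 4 contradict the title, the description and the group entry, and the latter were used here. The arrays lay on 3 slides. The first held MI replicates 1 to 3, the second MI replicate 4 and YQFM replicate 1, and the third all Sham arrays and YQFM replicates 2 to 4, so that no slide held both MI and Sham. Between 211 and 268 miRNAs were detected per array, and 24.4% to 31.6% of spots were well above background. MI replicate 3 was the lowest in both measures, and the arrays of the second slide were the highest, with 268 detected on MI replicate 4 and 265 on YQFM replicate 1.

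Signals are given as log2 of the intensity after division by the array's 75th percentile over 197 miRNAs detected on all arrays. The members were left out of that set. With the members included, the percentile fell on miR-21-5p itself on Sham replicate 1, YQFM replicate 2 and YQFM replicate 4, and on miR-214-3p on MI replicate 1, which ties the scaled signal of that array to a member. Leaving the members out moved the scaled signals of MI replicate 2 by 0.23 on the log2 scale. A floor of 5.37 (2.42 as log2) replaced all lower scaled signals.

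miR-21-5p was high on 4 of the 12 arrays, of which 3 were MI arrays and 1 was a YQFM array. Its log2 signals were 7.92, 7.29, 7.96 and 7.95 in Sham replicates 1 to 4, then 9.23, 8.90, 7.67 and 8.86 in MI, and 9.39, 7.93, 7.79 and 7.80 in YQFM. MI replicates 1, 2 and 4 and YQFM replicate 1 were at 8.86 or more, the other 8 arrays were at 7.96 or less, and no array lay between. MI replicate 3 was within the range of the Sham arrays. The Sham arrays averaged a log2 signal of 7.78 ± 0.33 (SD, n = 4), the MI arrays 8.66 ± 0.68 and the YQFM arrays 8.23 ± 0.77.

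miR-199a-3p, which is known to promote the division of cardiomyocytes, had log2 signals of 6.90, 6.55, 7.22 and 6.79 in Sham replicates 1 to 4, then 7.94, 8.08, 6.73 and 7.32 in MI, and 8.78, 7.13, 6.90 and 6.99 in YQFM. YQFM replicate 1 was the highest array, MI replicates 1 and 2 came next, and MI replicate 4 was barely higher than the highest Sham array. The Sham arrays averaged a log2 signal of 6.87 ± 0.28 (SD, n = 4), the MI arrays 7.52 ± 0.62 and the YQFM arrays 7.45 ± 0.89.

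miR-199a-5p, the other arm of that hairpin, is a known repressor of Hif1a and Sirt1. Its log2 signals were 4.01, 3.69, 4.36 and 3.81 in Sham replicates 1 to 4, then 5.12, 5.25, 3.83 and 4.97 in MI, and 6.37, 4.44, 4.10 and 4.35 in YQFM. MI replicate 4 stood with MI replicates 1 and 2 here, MI replicate 3 lay among the Sham arrays, and YQFM replicate 1 was again the highest. The Sham arrays averaged a log2 signal of 3.97 ± 0.29 (SD, n = 4), the MI arrays 4.79 ± 0.65 and the YQFM arrays 4.81 ± 1.04.

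miR-214-3p, known to repress the sodium-calcium exchanger transcript, had log2 signals of 7.20, 6.49, 7.17 and 6.84 in Sham replicates 1 to 4, then 7.96, 8.26, 7.20 and 7.11 in MI, and 8.63, 6.99, 6.92 and 6.92 in YQFM. Only MI replicates 1 and 2 and YQFM replicate 1 were well above the Sham arrays, and MI replicate 4 was within their range. The Sham arrays averaged a log2 signal of 6.92 ± 0.33 (SD, n = 4), the MI arrays 7.63 ± 0.57 and the YQFM arrays 7.36 ± 0.85.

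miR-214-5p, the other arm of the miR-214 hairpin, was at the floor on all 12 arrays. Before flooring, its scaled signal reached at most 0.0673, so that no ratio was measured for it. Each member had 2 probes, and levels are not compared between members since different probes are not on a common scale.

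**Figure D1:**
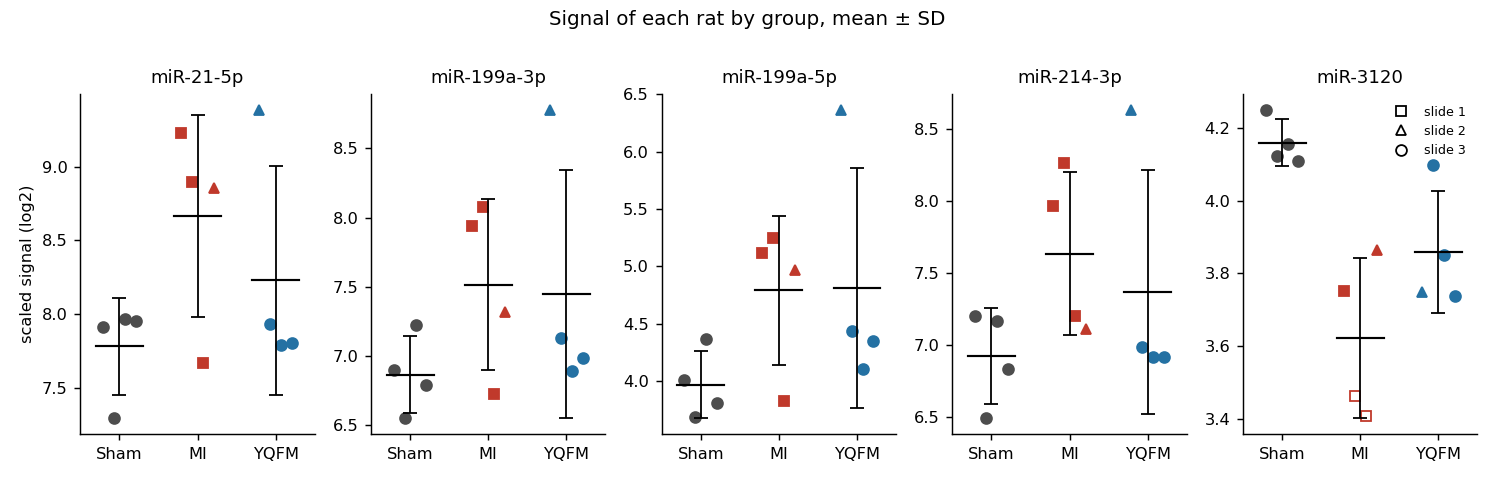
Scaled signal (log2) of miR-21-5p, miR-199a-3p, miR-199a-5p, miR-214-3p and miR-3120 in each rat by group, with the mean and SD of 4 rats as bars and with a vertical scale of its own in each panel. Squares, triangles and circles mark slides 1, 2 and 3, and open symbols mark arrays on which the miRNA was not detected. YQFM replicate 1, the blue triangle, is the highest array in the first 4 panels, and MI replicate 3 lies near the Sham arrays in them.

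To compare the members array by array, each log2 signal was set against the mean of the Sham arrays and against the 4 single Sham arrays. On MI replicate 1 the members lay 1.04 to 1.45 above the Sham mean on the log2 scale, on MI replicate 2 by 1.12 to 1.34, and on YQFM replicate 1 by 1.61 to 2.40. On each of these 3 arrays, 4 of the 4 detected members exceeded all Sham arrays. Of all 263 tested miRNAs, 39.5% exceeded all Sham arrays on MI replicate 1, 37.6% on MI replicate 2 and 28.1% on YQFM replicate 1.

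Among the 263 deviations from the Sham mean, the members ranked 5 to 13 from the top on MI replicate 1, 4 to 12 on MI replicate 2 and 2 to 9 on YQFM replicate 1. The 95th percentile of all tested miRNAs on these arrays was 0.98, 1.1 and 1.07 on the log2 scale. The members were thus high together on these 3 arrays, where many other miRNAs were also above the Sham arrays, most of them by less.

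MI replicate 4 differed from these arrays. miR-21-5p and miR-199a-5p lay 1.07 and 1.00 above the Sham mean on the log2 scale and ranked 1 and 2 of 263, while miR-199a-3p lay 0.45 and miR-214-3p 0.19 above it, at ranks 19 and 52. Of the detected members, 3 of 4 exceeded all Sham arrays there, against 14.8% of all tested miRNAs. In the reported signals the products of 1 locus, and even both arms of 1 hairpin, were therefore apart on this array. The 5p arm minus the 3p arm of miR-199a lay 0.54 above the Sham mean on the log2 scale there, and 0.48 above it on YQFM replicate 1, where both arms were high. From Sham to MI the mean of this difference changed by 0.17, but by -0.29 with normexp background correction. The second probe of miR-199a-5p was detected on only 3 of the 12 arrays. MI replicate 4 shares its slide with YQFM replicate 1 and is 1 of the 2 arrays with conflicting labels.

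On MI replicate 3 the deviations from the Sham mean were -0.11 for miR-21-5p, -0.14 for miR-199a-3p, -0.14 for miR-199a-5p and 0.28 for miR-214-3p on the log2 scale. The members were at ranks 40 to 123 there, and 1 of 4, miR-214-3p, equaled the highest Sham array to 2 decimals and exceeded it by a smaller margin, against 15.6% of all tested miRNAs. On YQFM replicates 2, 3 and 4 the deviations ran from -0.01 to 0.47, all less than the lowest of MI replicates 1 and 2. The members still ranked 10 to 46 of 263 on YQFM replicate 2 and 4 to 39 on YQFM replicate 4, and 35 to 104 on YQFM replicate 3. The median deviation of all tested miRNAs on YQFM replicates 2, 3 and 4 was -0.11, -0.04 and -0.27. The number of detected members above all Sham arrays was 1 of 4 on YQFM replicate 2 (4.94% of all tested), 0 of 4 on YQFM replicate 3 (6.46%) and 0 of 4 on YQFM replicate 4 (1.9%).

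**Figure D2:**
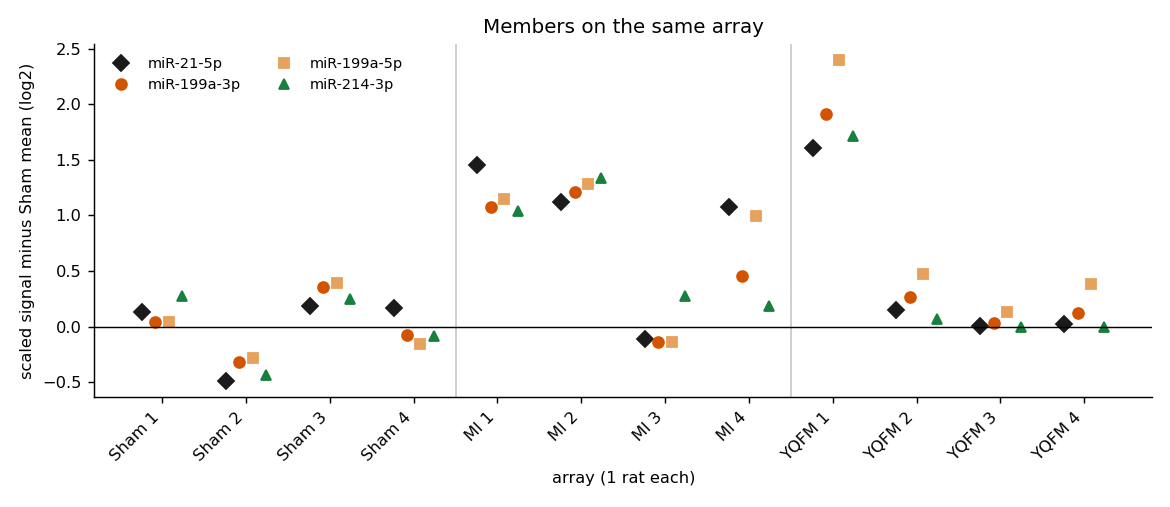
Deviation of each member's log2 scaled signal from the mean of the 4 Sham arrays, for each of the 12 arrays (1 rat each). On MI replicates 1 and 2 and YQFM replicate 1 all 4 members lie over 1 above the Sham mean, on MI replicate 4 only miR-21-5p and miR-199a-5p reach 1.00, and the other YQFM arrays lie at 0.47 or less.

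This array pattern was recomputed with other scalings and signals. The arrays on which 4 of 4 detected members exceeded all Sham arrays included MI replicates 1 and 2 and YQFM replicate 1 in 11 of 11 settings, counting the one reported. MI replicate 4 was among them in 5 of 11 settings, YQFM replicate 4 in 3, YQFM replicate 2 in 2, and MI replicate 3 and YQFM replicate 3 in 0. The scaling decided which arrays joined the first 3. Scaling by the median log2 difference from the mean array or by the percentile over all miRNAs added MI replicate 4 and YQFM replicates 2 and 4, no scaling added MI replicate 4 and YQFM replicate 4, and the total gene signal and the brightest probe added MI replicate 4.

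MI was compared with Sham to ask which miRNAs differ near the infarct. From Sham to MI the log2 ratio was 0.88 (SE 0.404) for miR-21-5p, 0.65 (SE 0.419) for miR-199a-3p, 0.82 (SE 0.471) for miR-199a-5p and 0.71 (SE 0.400) for miR-214-3p, which is a fold of 1.57 to 1.84. In each of the 4 members, 3 of the 4 MI arrays exceeded all Sham arrays, and the groups overlapped. Besides MI replicates 1 and 2 this was MI replicate 4, except in miR-214-3p. There it was MI replicate 3, which equaled the highest Sham array to 2 decimals. On MI replicates 1 to 4, 39.5%, 37.6%, 15.6% and 14.8% of all tested miRNAs exceeded all Sham arrays. The share with 3 such arrays was not counted, so that the count for the members has no share to be set against. No member passed the test, with adjusted p-values of 0.188, 0.360, 0.289 and 0.282 in the order given (limma, two-sided, Benjamini-Hochberg over 263 miRNAs). Exact two-sided permutation tests gave 0.114, 0.143, 0.0857 and 0.114, where 4 rats against 4 allow no p under 0.0286. Over all 263 tested miRNAs limma called 6, or 2.28%, all lower in MI, with 68 (25.9%) at an unadjusted p under 0.05, and the median log2 ratio was 0.03. By size of the ratio, the members were at ranks 8, 19, 9 and 18 from the highest.

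The size of these ratios rested on MI replicate 3 in part, the MI array on which the members were not high and the fewest miRNAs were detected. The part of detection in its values was not tested. Without it the log2 ratios of MI to Sham were 1.21 for miR-21-5p, 0.91 for miR-199a-3p, 1.14 for miR-199a-5p and 0.86 for miR-214-3p, with adjusted p-values of 0.183 to 0.279 from limma. Without the second slide, a comparison chosen after the data were seen, miR-214-3p was called, with a log2 ratio of 0.89 and an adjusted p of 0.0356 from limma, and the other members were at 0.72 to 0.82 with adjusted p-values of 0.110 to 0.119. Leaving out both arrays of that slide raised the number called over all miRNAs from 6 to 62.

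With the slide as a block all 4 log2 ratios of MI to Sham turned negative, to -0.47 for miR-21-5p, -1.32 for miR-199a-3p, -1.07 for miR-199a-5p and -1.51 for miR-214-3p, with adjusted p-values of 0.672 to 0.861 from limma. No slide held both groups, so that this value is carried by YQFM replicate 1 against MI replicate 4 on the second slide and by the other YQFM arrays against Sham on the third, and group and slide cannot be told apart.

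YQFM was compared with MI to ask what the treatment altered. The log2 ratio of YQFM to MI was -0.43 for miR-21-5p, -0.07 for miR-199a-3p, 0.02 for miR-199a-5p and -0.27 for miR-214-3p, with an SE of 0.400 to 0.471. None passed the test, with adjusted p-values of 0.615, 0.987, 1.00 and 0.777 (limma). Of all 263 miRNAs limma called 0, or 0%, with 49 (18.6%) at an unadjusted p under 0.05, and the methods' t-test called 0 after Benjamini-Hochberg adjustment and 46 before it. The median log2 ratio over all tested miRNAs was -0.10.

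These ratios rested on YQFM replicate 1. Without it the log2 ratio of YQFM to MI was -0.82 for miR-21-5p, -0.51 for miR-199a-3p, -0.49 for miR-199a-5p and -0.69 for miR-214-3p, with adjusted p-values of 0.147 to 0.295 from limma. On the second slide, the only one that held both groups, YQFM replicate 1 exceeded MI replicate 4 by 0.53 in miR-21-5p, 1.46 in miR-199a-3p, 1.40 in miR-199a-5p and 1.52 in miR-214-3p on the log2 scale, with 1 array each and no test. The direction of the comparison between YQFM and MI therefore differed between the pooled arrays and the shared slide for miR-21-5p, miR-199a-3p and miR-214-3p.

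Between YQFM and Sham the log2 ratio was 0.45 for miR-21-5p, 0.58 for miR-199a-3p, 0.84 for miR-199a-5p and 0.44 for miR-214-3p, with adjusted p-values of 0.769 to 0.784 from limma. Of all 263 miRNAs limma called 0, or 0%, with 16 (6.08%) at an unadjusted p under 0.05, and the methods' t-test called 0 after Benjamini-Hochberg adjustment. Without YQFM replicate 1 the log2 ratios were 0.06, 0.14, 0.33 and 0.02. On the third slide, where these 3 YQFM arrays lay beside the 4 Sham arrays, the exact two-sided permutation p was 0.971, 0.457, 0.143 and 1.00, and the smallest possible p was 0.0286.

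**Figure D3:**
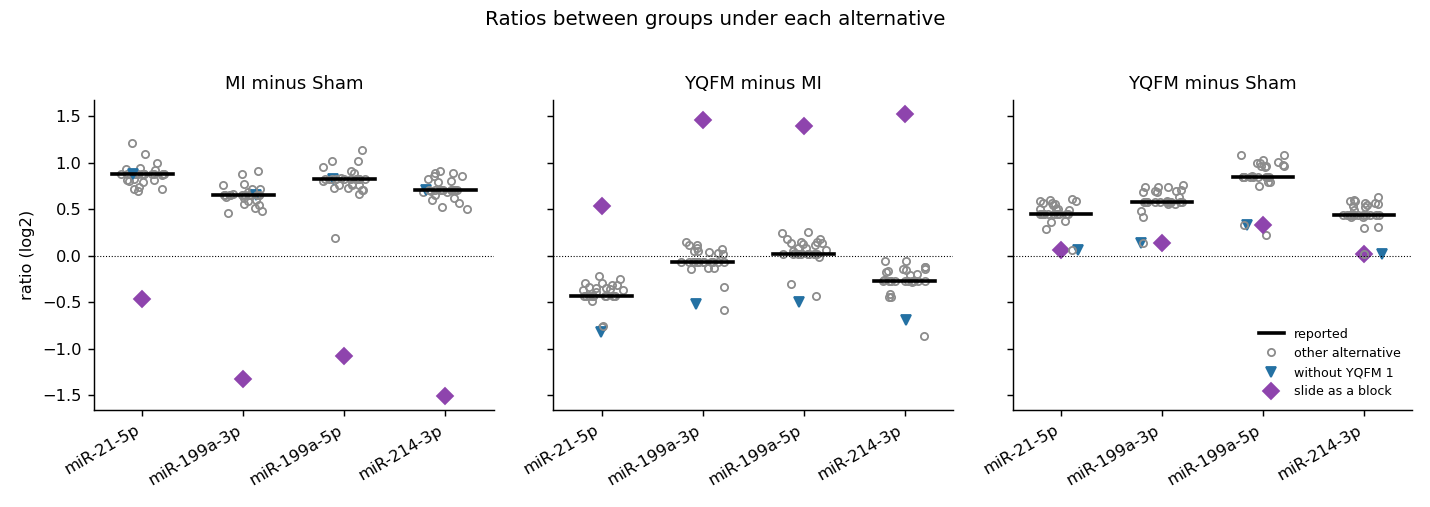
Log2 ratio between groups for the 4 detected members, with the reported value as a bar and each alternative as a point (spread sideways for legibility). With the slide as a block (diamonds) the ratios of MI to Sham lie from -1.51 to -0.47 and those of YQFM to MI from 0.53 to 1.52, and without YQFM replicate 1 (triangles) the ratios of YQFM to MI lie from -0.82 to -0.49.

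Under the 10 other signals and scalings, the log2 ratio of MI to Sham kept its sign, from 0.72 to 1.1 for miR-21-5p, 0.48 to 0.87 for miR-199a-3p, 0.19 to 1.02 for miR-199a-5p and 0.52 to 0.91 for miR-214-3p. The lowest value of miR-199a-5p came from normexp background correction with an offset of 50. Using only the brightest probe moved the median of all miRNAs from 0.03 to 0.20, and relative to this median the members had log2 ratios of 0.67 to 0.89. The probes of a member moved alike, with log2 ratios of MI to Sham of 0.88 and 0.92 for the probes of miR-21-5p, 0.64 and 0.66 for miR-199a-3p and 0.69 and 0.75 for miR-214-3p. For miR-199a-5p they were 0.80 and 0.68, and the second of these probes was detected on 3 of 12 arrays.

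Whether miR-21-5p and the miR-199a and miR-214 products were high on the same arrays was described by their correlation across the 12 arrays. Pearson's r of the log2 signals with miR-21-5p was 0.92 for miR-199a-3p, 0.92 for miR-199a-5p and 0.87 for miR-214-3p. Within the locus, r was 0.98 between both miR-199a arms, 0.95 between miR-199a-3p and miR-214-3p and 0.89 between miR-199a-5p and miR-214-3p. The points share the scaling of the array, and over all tested miRNAs the median r with miR-21-5p was 0.28. Taken as deviations from the slide means, the r with miR-21-5p was 0.85, 0.83 and 0.76, and as deviations from the group means 0.93, 0.95 and 0.84, in the order miR-199a-3p, miR-199a-5p and miR-214-3p. The arrays fall into a high and a low set for miR-21-5p, and no p is given across both.

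Within the 8 arrays of the low set, which were split by miR-21-5p, the r with miR-21-5p was 0.78 for miR-199a-3p, 0.62 for miR-199a-5p and 0.68 for miR-214-3p. Adjusted over the tested miRNAs these did not pass (exact permutation p = 0.0147, 0.0785 and 0.0807, adjusted p = 0.398, 0.496 and 0.498). Spearman's rho was 0.74, 0.52 and 0.17 there (exact permutation p = 0.0458, 0.197 and 0.703, adjusted p = 0.553, 0.629 and 0.836). In the same 8 arrays both miR-199a arms had an r of 0.94 and a rho of 0.93 (exact permutation p = 0.000496 and 0.00223, adjusted p = 0.128 and 0.578). The r between miR-214-3p and the miR-199a arms was 0.58 and 0.41 (exact permutation p = 0.132 and 0.313, adjusted p = 0.987 and 0.999), with a rho of 0.36 and 0.38.

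Of these 8 arrays the 2 farthest from the median of miR-21-5p were then left out, and the r with miR-21-5p was 0.30 for miR-199a-3p, -0.09 for miR-199a-5p and 0.40 for miR-214-3p. Without those 2 arrays the relation to miR-21-5p among the low arrays no longer held, and both the split and this step narrow the range of miR-21-5p. Without the corresponding 2 arrays for miR-199a-3p, r with miR-199a-5p stayed at 0.96, while that with miR-214-3p was -0.23. In these values both arms of the miR-199a hairpin had a high r across the low arrays, which did not pass after adjustment over the tested miRNAs. miR-214-3p followed them less closely there, a difference that was not tested.

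**Figure D4:**
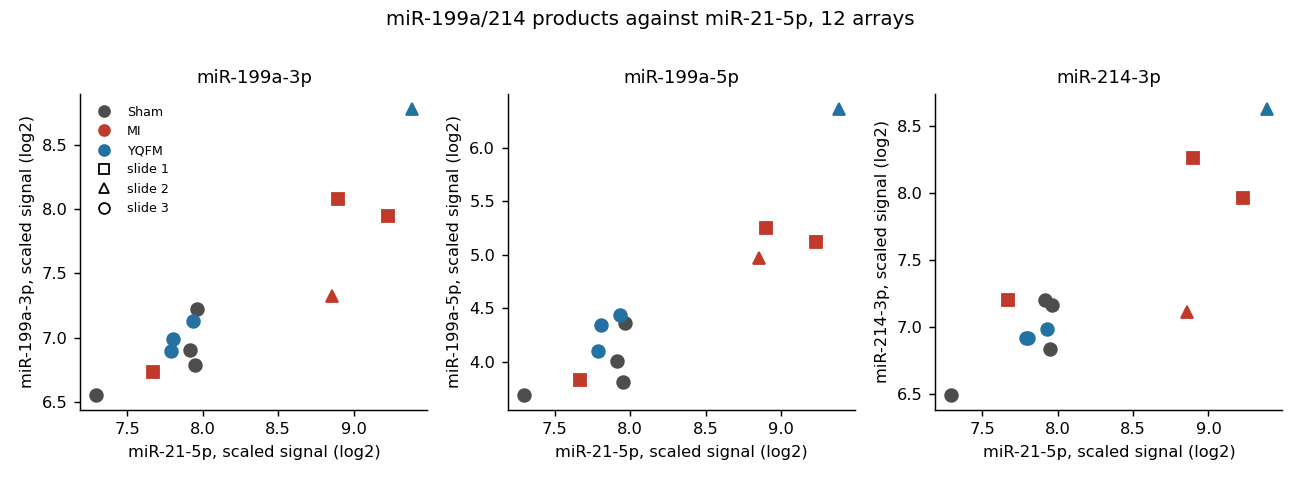
Scaled signal (log2) of miR-199a-3p, miR-199a-5p and miR-214-3p against that of miR-21-5p on the 12 arrays, coloured by group and with symbols for the slide. The 4 arrays at the right have miR-21-5p at 8.86 or more, and the red triangle, MI replicate 4, lies under the other 3 in miR-199a-3p and miR-214-3p.

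Other miRNAs followed miR-21-5p as closely. The tested miRNAs with the highest r over the 12 arrays were miR-24-3p (0.963), miR-103-3p (0.950) and miR-146b-5p (0.947), of which the last was not detected on Sham arrays, and the products of the second locus ranked 5, 6 and 18 of 260. For miR-199a-3p the nearest were miR-199a-5p (0.976), miR-31a-5p (0.963) and miR-214-3p (0.954). For miR-199a-5p they were miR-199a-3p, miR-125b-5p (0.954) and miR-31a-5p (0.937), and for miR-214-3p they were let-7b-5p (0.961), let-7c-5p (0.955) and miR-199a-3p. Of these, miR-31a-5p lay at the floor on Sham replicates 1, 2 and 4, MI replicate 3 and YQFM replicate 3, so that its r includes tied values. The deviations of miR-24-3p from the Sham mean were smaller, at 0.46, 0.45, -0.26 and 0.39 in MI replicates 1 to 4 and 0.66 in YQFM replicate 1 on the log2 scale.

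Differences between members within an array do not depend on the scaling between arrays. The log2 signal of miR-199a-3p minus that of miR-21-5p was -1.01, -0.74, -0.74 and -1.16 in Sham replicates 1 to 4, then -1.29, -0.82, -0.94 and -1.54 in MI, and -0.61, -0.80, -0.89 and -0.82 in YQFM. It was lowest on MI replicate 4 and highest on YQFM replicate 1, and the groups overlapped. The difference changed by -0.23 from Sham to MI (exact two-sided permutation test, p = 0.257) and by 0.37 from MI to YQFM (p = 0.0571).

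The log2 signal of miR-214-3p minus that of miR-21-5p was -1.12 to -0.72 on the Sham arrays, -1.74 to -0.47 on the MI arrays and -0.94 to -0.75 on the YQFM arrays. The wide range in MI came from MI replicate 3 at the top and MI replicate 4 at the bottom. The mean changed by -0.17 from Sham to MI (exact two-sided permutation test, p = 0.657). For miR-199a-5p minus miR-21-5p the change was -0.06 from Sham to MI (p = 0.743 by the exact permutation test) and 0.46 from MI to YQFM (p = 0.0571).

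Within the miR-199a hairpin, the 5p arm minus the 3p arm was -2.89, -2.86, -2.86 and -2.98 on the log2 scale in Sham replicates 1 to 4, then -2.82, -2.83, -2.90 and -2.35 in MI, and -2.41, -2.69, -2.79 and -2.64 in YQFM. All YQFM arrays were above all Sham arrays, with a change of 0.26 (p = 0.0286 by an exact two-sided permutation test, which 4 against 4 cannot go under). This was the only one of 15 such tests whose groups did not overlap, and adjusted over them its p was 0.286. On the third slide alone the change was 0.19 with 3 YQFM and 4 Sham arrays (p = 0.0286 by the exact permutation test, the smallest possible). These arrays are part of the same comparison, so that their lack of overlap was given in advance and this p is no further evidence. With normexp background correction it turned to -0.19 (p = 0.257 by the exact permutation test). The difference between miR-214-3p and miR-199a-3p overlapped in all 3 comparisons, with exact permutation p-values of 0.114 to 0.771.

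**Figure D5:**
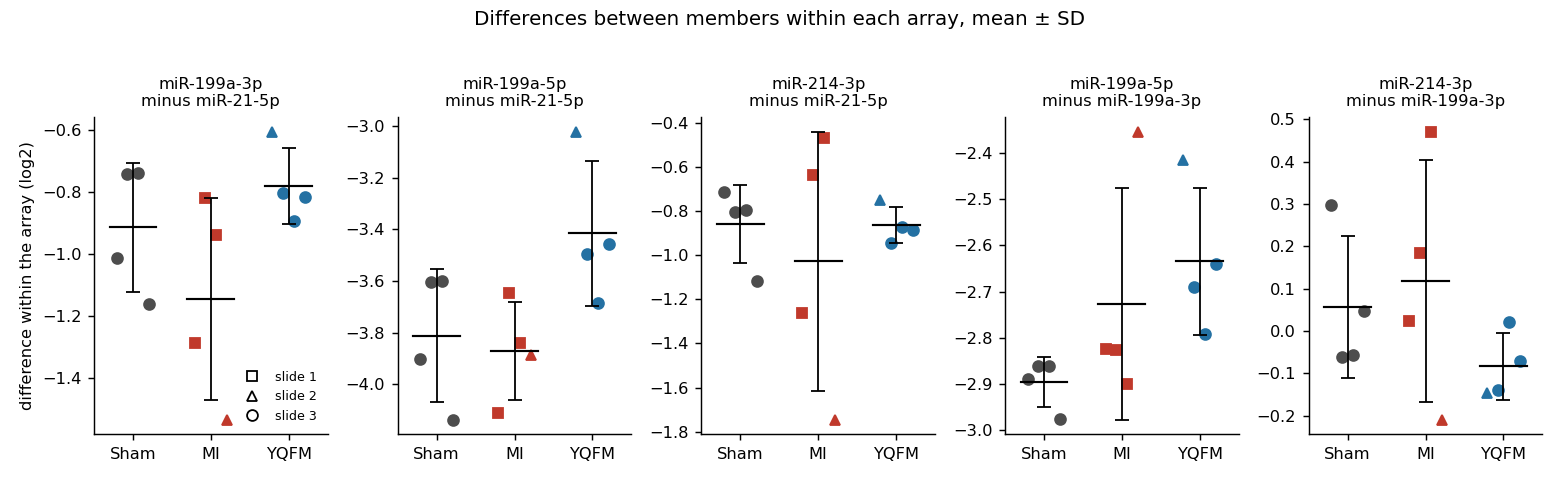
Difference of log2 signal between 2 members of the same array, by group, with the mean and SD of 4 rats as bars and a vertical scale of its own in each panel; symbols mark the slide. MI replicate 4 is the lowest MI array in the panels of miR-199a-3p and miR-214-3p and the highest in that of both miR-199a arms, where all YQFM arrays lie above all Sham arrays.

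miR-3120, from the opposite strand of the miR-214 hairpin, did not follow miR-214-3p. Its log2 signals were 4.25, 4.12, 4.16 and 4.11 in Sham replicates 1 to 4, then 3.75, 3.46, 3.41 and 3.86 in MI, and 3.75, 4.10, 3.85 and 3.74 in YQFM, and it was not detected on MI replicates 2 and 3. All MI and all YQFM arrays were lower than all Sham arrays, which held for 7.98% and 2.28% of the 263 tested miRNAs. It was 1 of the 6 called between MI and Sham and fell by 0.54 on the log2 scale (SE 0.122, adjusted p = 0.0466 from limma), while its ratio of YQFM to MI of 0.24 did not pass (adjusted p = 0.334 from limma). The call was lost in the same direction under 21 of 28 alternatives, the slide as a block among them (-0.15, adjusted p = 0.874 from limma), and with normexp background correction the ratio of MI to Sham was 0.02. Its r with miR-214-3p over the 12 arrays was -0.52. miR-21-3p, the other arm of the miR-21 hairpin, was detected on YQFM replicate 4 alone and lay at the floor on all arrays.

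Of 24 miRNAs with a known part in cardiac fibrosis, 23 were on the array, 22 were detected on at least 1 array and 20 were tested. Among them 0 were called in any comparison by limma, against the share of 2.28% for MI and Sham over all tested miRNAs. miR-22-3p was called lower in MI than in Sham in 4 of 29 alternatives, those with the members kept in the scaling set, without MI replicate 4, without the arrays with conflicting labels and without the second slide (log2 ratio -0.44, -0.42, -0.39 and -0.42 in that order, with the smallest adjusted p of 0.0132 from limma without MI replicate 4). The median log2 ratio of the list was 0.09 for MI to Sham, -0.07 for YQFM to MI and -0.02 for YQFM to Sham, beside 0.03, -0.10 and -0.11 over all tested miRNAs. For MI to Sham the largest log2 ratios of the list were those of miR-34a-5p at 0.40, miR-29a-3p, a repressor of collagen transcripts, at 0.37, and miR-22-3p at -0.35 (adjusted p = 0.392, 0.188 and 0.0708 from limma). For YQFM to MI they were -0.28 for miR-15b-5p, -0.26 for miR-155-5p and -0.24 for miR-34a-5p, and for YQFM to Sham -0.31 for miR-22-3p, -0.28 for miR-30d-5p and -0.27 for miR-30c-5p, with adjusted p-values of 0.349 or more from limma. The 4 detected members were thus further from 0 between MI and Sham than any tested miRNA of this list, a description of the ratios with no test. Their SE of 0.400 to 0.471 was larger than that of miR-22-3p (0.0969), whose adjusted p from limma was lower than theirs (0.188 to 0.360). The members were also chosen with earlier results of these data known.

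The labelled tissue was checked by miRNAs known to mark cell types. The cardiomyocyte miRNAs miR-1-3p and miR-133b-3p had log2 signals of 11.8 to 12.7 on all arrays, and markers of liver and brain were detected on no array. Of the other cardiomyocyte miRNAs listed, miR-208a-3p was detected on Sham replicate 1 alone and miR-208b-3p on no array. The array holds no miRNA that marks fibroblasts alone, so that the source of the members in fibroblasts was not tested. Of the lists for other cells, 0 miRNAs were called in any comparison (4 cardiomyocyte, 2 endothelial, 2 smooth muscle, 4 leukocyte and 2 erythrocyte miRNAs tested). Over all tested miRNAs the share called was 2.28% for MI and Sham and 0% for the other comparisons. With so few miRNAs listed, the count of 0 does not set these lists apart. The summed scaled signal of the endothelial miRNAs was 524 to 726 in Sham, 708 to 964 in MI and 573 to 731 in YQFM. That of the leukocyte miRNAs was 308 to 382, 335 to 421 and 300 to 410, with miR-142-3p and miR-142-5p, their defining markers, detected on no array. Their part in the differences of the members was not tested.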

How the data were processed

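MiRNA was extracted by the authors from the left ventricle near the infarct, labeled with 1 dye and put on Agilent rat miRNA arrays, 1 per rat. The deposited scanner files hold spot intensities that Feature Extraction (version 10.7.1.1, per the labels) had background-subtracted and not scaled between arrays. The deposited processed values, linear intensity per miRNA, served as an alternative. All columns of per-sample values were matched to a sample.

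From the deposited intensities, control spots and outlier spots (902 to 1052 of 12128 per array) were left out, and signals were averaged per probe, then per miRNA. Each array was divided by its 75th percentile over 197 miRNAs detected on all arrays, without the members, and brought back to the mean percentile. Signals under the floor of 5.37 were set to it before log2. The 263 miRNAs detected on at least 2 of 4 arrays of a group were tested with limma 3.58.1 (R 4.3.3) over all 12 arrays, with Benjamini-Hochberg adjustment and a threshold of 0.05. Single values were compared by exact two-sided permutation tests over all splits of the arrays (numpy 2.4.6). The test was tested on simulated data. Each group is 4 rats, whose number limits the precision, and 471 of 758 miRNAs were detected on no array.

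The members and lists were chosen with earlier results of these data known. Named were the members, the other products of their loci, the 3 miRNAs with the highest r to each detected member, and the 3 largest ratios of the fibrosis list per comparison where none was called. Alternatives were the members kept in the scaling set, scaling by the median log2 difference, by all miRNAs, by quantiles or not at all, normexp correction, the total gene signal, the processed values, the brightest probe, a lower floor, other detection filters, single arrays or the arrays with conflicting labels left out, fits of just 2 groups, the replicate number or slide as a block, and the methods' t-test. Leaving out the second slide was added after the data were seen. Sequences and positions came from RefSeq tables of GRCr8, in which all 5 members were matched.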

Additional observations from a re-analysis of the deposited data

Results flagged for a closer look

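In a group of 4 arrays, an array was singled out when its distance to the nearest other array, as a share of the group's range, exceeded Dixon's critical value. This was so for 14 of the 72 groups of values compared. Chance alone singles out about 1 in 20 independent groups, but these groups are not independent. Some of the miRNAs were named for their r with the members over these same arrays, so that the count cannot be set against chance. YQFM replicate 1 was the highest YQFM array by this measure for miR-21-5p (log2 signal 9.39), miR-199a-3p (8.78), miR-199a-5p (6.37), miR-214-3p (8.63), miR-125b-5p (10.1) and let-7b-5p (11.4).

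Sham replicate 2 was the lowest Sham array for miR-21-5p (log2 signal 7.29), miR-24-3p (9.35), miR-103-3p (6.50) and miR-22-3p (10.6). MI replicate 3 was the lowest MI array for miR-24-3p (log2 signal 9.33) and miR-103-3p (6.63). miR-31a-5p was above the floor on Sham replicate 3 alone among the Sham arrays, at a log2 signal of 3.44. The difference between the 5p and the 3p arm of miR-199a was -2.35 on MI replicate 4, the highest of the MI arrays.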

How the results depend on the processing

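Of 758 miRNAs 471 were detected on no array, miR-214-5p among them, and could not be compared. Over the alternatives, no member was called in any comparison by limma except miR-214-3p between MI and Sham without the second slide (log2 ratio 0.89). The cause was not tested for any of the following values. The replicate numbers do not mark shared animals, same-numbered arrays deviated together in 4 of 12 pairs with r over 0.1 (median r of -0.04), and with the replicate number as a block 1 miRNA was called between MI and Sham and the log2 ratio of miR-21-5p stayed at 0.88.

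The number of miRNAs called between MI and Sham was 19 with the members kept in the scaling set, 39 without the arrays with conflicting labels and 62 without the second slide. It was 3 for scaling by all miRNAs, the processed values and the methods' t-test, 2 for quantile normalization, the brightest probe and a fit of only the groups compared, and 1 for scaling by the median difference and for the lower floor. It was 0 for no scaling, normexp correction, the total gene signal, miRNAs detected on all arrays and the slide as a block, and 1 to 54 with 1 array left out, the highest without MI replicate 4. Between YQFM and MI it was 2 for quantile normalization, 1 for normexp correction, 6 for the brightest probe, 23 without the arrays with conflicting labels, 52 without the second slide, and 0 to 24 with 1 array left out, the highest again without MI replicate 4.

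With the slide as a block the log2 ratios of MI to Sham turned to -0.47 for miR-21-5p, -1.32 for miR-199a-3p, -1.07 for miR-199a-5p, -1.51 for miR-214-3p, -0.67 for miR-34a-5p and -0.075 for miR-29a-3p. Those of YQFM to MI turned to 0.53 for miR-21-5p, 1.46 for miR-199a-3p, 1.52 for miR-214-3p, -0.12 for miR-3120, 0.63 for miR-15b-5p and miR-34a-5p, and 0.072 for miR-155-5p. For miR-199a-3p, whose log2 ratio of YQFM to MI was near 0, it also turned to 0.024 with the members kept in the scaling set, 0.056 for the median difference, 0.048 for scaling by all miRNAs, 0.026 for quantile normalization and 0.15 for no scaling, and it ran from -0.51 to 0.12 with 1 array left out. That of miR-199a-5p turned to -0.0090 for the brightest probe and -0.44 without the second slide, and ran from -0.49 to 0.26 with 1 array left out. With normexp correction the ratio of miR-3120 turned to 0.019 for MI to Sham and 0.032 for YQFM to Sham.

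The r of miR-21-5p with miR-199a-3p moved to 0.88 for quantile normalization, 0.97 without the arrays with conflicting labels, 0.85 for deviations from slide means and 0.87 without the 2 arrays farthest from the median. That with miR-199a-5p moved to 0.86 for quantile normalization, 0.74 for normexp correction, 0.95 for deviations from group means, 0.83 for deviations from slide means and 0.85 as Spearman's rho. That with miR-214-3p moved to 0.76 for deviations from slide means, 0.74 without the 2 farthest arrays and 0.66 as rho. Between both miR-199a arms r moved to 0.94 for normexp correction and without the 2 farthest arrays. Without the 2 farthest arrays the r with miR-214-3p was 0.86 for miR-199a-3p and 0.70 for miR-199a-5p, and rho was 0.73 for both.

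Among the differences within an array, miR-199a-3p minus miR-21-5p changed from MI to YQFM by 0.93 on the second slide and by 0.24 to 0.47 with 1 array left out. For miR-199a-5p minus miR-21-5p the change from Sham to MI turned to 0.028 for the total gene signal and for the processed values, and ran from -0.17 to 0.019 with 1 array left out. From MI to YQFM it was 0.87 on the second slide and 0.33 to 0.55 with 1 array left out, and from Sham to YQFM it turned to -0.13 for normexp correction. For miR-214-3p minus miR-21-5p the change from Sham to MI turned to 0.068 without the second slide, with -0.36 to 0.068 for 1 array left out. From MI to YQFM it was -0.074 without the arrays with conflicting labels and 0.99 on the second slide, with -0.074 to 0.35 for 1 array left out, and from Sham to YQFM 0.023 for the brightest probe, with -0.091 to 0.042. For miR-199a-5p minus miR-199a-3p the change from Sham to MI turned to -0.29 for normexp correction and ran from 0.046 to 0.23 with 1 array left out. From Sham to YQFM it turned to -0.19 for normexp correction, and its groups overlapped for the total gene signal and the processed values (0.38). Without the arrays with conflicting labels it was 0.24 with an exact permutation p of 0.0571, where the lack of overlap followed from the full comparison. It ran from 0.19 to 0.32 with 1 array left out. For miR-214-3p minus miR-199a-3p the change from Sham to MI ran from -0.058 to 0.17 with 1 array left out. From MI to YQFM it was -0.31 without the arrays with conflicting labels, with no overlap of the groups, and 0.062 on the second slide, with -0.31 to -0.083 for 1 array left out.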
